A study of Mus musculus with 8 samples.

Results

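Many scavenger receptors bind oxidized, acetylated or otherwise modified lipoprotein. A set of 10 genes grouped under this name was studied here, whether or not each binds it: Msr1, Marco, Scara5, Cd36, Scarb1, Scarb2, Olr1, Stab1, Stab2 and Cd5l. The set was chosen by gene symbol, and all 10 genes were found among the 24411 rows of the count table. Of these, 9 were abundant enough to be tested together with 14679 genes in all, and Marco was not. RNA was sequenced from whole aortas of 8 mice. All 8 mice lacked apolipoprotein E (ApoE(-/-)) and carried the caIKK2(+/+) transgene, a permanently active form of the NF-κB-activating kinase IKK2 that is expressed together with EGFP once a loxP-flanked STOP cassette is removed. The 5 caIKK2EC mice also carried BMX-CreERT2(+/-), a tamoxifen-inducible Cre recombinase described in the labels as active only in arterial endothelial cells. The 3 Control mice were littermates without the Cre, BMXCreERT2(-/-), in which the transgene stays silent. Both groups received tamoxifen (1 mg per 20 g of body weight, by intraperitoneal injection on 5 days) and a Western-type diet with 2070 mg cholesterol per kg for 12 weeks, and were 18 or 19 weeks old. All mice were female except Control 3, a male of 19 weeks. The study switched IKK2 on early or late in the disease, and the sources used here do not say which was done in these 8 mice.

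Native low-density lipoprotein enters cells through a receptor that is shut down as cholesterol accumulates, whereas scavenger receptors are not held back in this way. Macrophages of the arterial wall that take up modified lipoprotein through them fill with cholesterol esters and become foam cells, the hallmark of the atherosclerotic plaque. The class A receptors MSR1, MARCO and SCARA5 are trimers with a collagen-like stalk. CD36, SR-B1 (Scarb1) and LIMP-2 (Scarb2) form class B, LOX-1 (Olr1) is a lectin-like receptor first described on endothelium, stabilin-1 and stabilin-2 are large clearance receptors of sinusoidal endothelium and some macrophages, and Cd5l encodes a secreted macrophage protein with scavenger receptor cysteine-rich domains that binds oxidized lipoprotein.

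The promoters of 4 of these genes are shown for the traits named next, and no expression result rests on them. Stab1 and Stab2 had the smallest mean difference between profiles over the 8 libraries. Cd5l was the most abundant of the genes per length of transcript. Scarb2 was the only one of the 7 searched with a match to the binding consensus of NF-κB, the factor that the transgene activates. That consensus matched in 8.46% of all promoters. The sequences run 5′ to 3′ along the gene from 250 bases before to 50 bases after the start given by RefSeq on GRCm38.p6, and capitals mark motif matches on either strand. The RefSeq starts used for Scarb2, Stab2 and Cd36 lie inside the spans of these genes in GENCODE, so other starts would give other windows. The window of Cd36, which is not printed, lies farthest inside.
Stab1 (chr14:31168592-31168891, minus strand): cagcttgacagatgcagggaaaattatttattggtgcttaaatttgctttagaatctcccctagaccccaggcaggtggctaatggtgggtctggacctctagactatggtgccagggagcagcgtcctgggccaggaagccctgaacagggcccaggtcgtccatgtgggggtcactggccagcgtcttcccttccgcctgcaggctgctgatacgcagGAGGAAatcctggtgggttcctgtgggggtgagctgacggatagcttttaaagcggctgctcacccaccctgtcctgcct
Stab2 (chr10:87007893-87008192, minus strand): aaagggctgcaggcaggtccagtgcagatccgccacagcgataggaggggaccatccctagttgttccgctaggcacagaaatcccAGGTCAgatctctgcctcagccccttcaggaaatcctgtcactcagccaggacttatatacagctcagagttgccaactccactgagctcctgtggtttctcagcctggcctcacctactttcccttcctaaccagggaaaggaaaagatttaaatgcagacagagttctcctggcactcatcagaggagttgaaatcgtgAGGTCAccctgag
Scarb2 (chr5:92505608-92505907, minus strand): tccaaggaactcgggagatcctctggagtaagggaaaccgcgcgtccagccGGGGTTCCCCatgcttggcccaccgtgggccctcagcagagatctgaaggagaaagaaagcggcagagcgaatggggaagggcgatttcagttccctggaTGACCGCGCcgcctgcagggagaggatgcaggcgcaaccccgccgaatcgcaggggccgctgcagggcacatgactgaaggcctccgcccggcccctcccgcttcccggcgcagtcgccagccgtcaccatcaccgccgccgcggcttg
Cd5l (chr3:87357631-87357930, plus strand): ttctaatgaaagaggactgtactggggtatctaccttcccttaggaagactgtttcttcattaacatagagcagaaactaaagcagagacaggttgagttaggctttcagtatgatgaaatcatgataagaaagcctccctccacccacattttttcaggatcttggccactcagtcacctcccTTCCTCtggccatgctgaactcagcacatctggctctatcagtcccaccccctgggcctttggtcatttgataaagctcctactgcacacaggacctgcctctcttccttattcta
RefSeq promoters of this kind were matched for 7 of the 10 genes, and not for Msr1, Scara5 and Scarb1. The core GAGGAA bound by PU.1, the myeloid lineage factor, was present in 4 of the 7 (Marco, Cd5l, Olr1 and Stab1) and in 28.3% of all 32851 promoters in the same table. In Stab1 it lay at -30 to -25, and in Cd5l on the opposite strand at -66 to -61, counted from the start site. The half-site AGGTCA of nuclear receptors was present in 3 of 7 (Cd36, Olr1 and Stab2) and in 16.3% of all promoters. Stab2 held it at -164 to -159 and again at 38 to 43. The κB consensus, searched by name on both strands, matched in 1 of 7, Scarb2 at -199 to -190 (GGGGTTCCCC), against 8.46% of all promoters. The AP-1 motif TGANTCA was found in 1 of 7, Olr1 at -60 to -54, against 7.81%, and the antioxidant response core in 1 of 7, Scarb2 at -99 to -91, against 27.8%. These are matches of letters within 300 bases, and they carry no measurement of binding.

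Library totals were 23461655 to 30808502 counts, and values are given as CPM, counts brought to a common library size with edgeR's TMM factors. Each library came from 1 mouse. Sequencing lanes, read from the deposited column names, were nearly the same split as the groups: lane 7 held the 3 Controls and caIKK2EC 1, and lane 8 held caIKK2EC 2 to 5, so lane 8 holds no comparison of its own. Ikbkb, the gene of IKK2, had 65.4 to 87.0 CPM in the Controls and 91.6 to 103 CPM in caIKK2EC (79.7 ± 12.4, SD, n = 3, and 98.4 ± 4.07, SD, n = 5), or 0.30 on the log2 scale with an SE of 0.12 and an edgeR adjusted p of 0.237. By the labels only arterial endothelium recombines the transgene, and the sources used here do not say if its reads count toward Ikbkb. Control 3 stood apart in cell type markers: its 11 macrophage markers summed to 2300 CPM, against 7072 and 7338 in Controls 1 and 2 and 8893 to 12580 in caIKK2EC, and its 6 smooth muscle markers to 36299 CPM, against 9897 to 21617 in the 7 other libraries. Results that rest on Control 3 are therefore given with and without it. Lyz2, the marker with the most counts, weighs most in the macrophage sum and had 541 to 4399 CPM over the Controls. Other markers differed less among the Controls, with 329 to 845 CPM for C1qb and 80.2 to 90.7 CPM for Adgre1. In whole aorta, a change in the number of cells of a type and a change in RNA per cell cannot be told apart.

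Per kilobase of exon, Cd5l was the most abundant of the 10 genes, at 787 CPM per kb in Control and 1125 in caIKK2EC. Cd36 came next with 193 and 172 CPM per kb. The libraries of these 2 genes did not overlap: the lowest Cd5l level was 346 CPM per kb and the highest Cd36 level 284. Stab1 followed at 37.1 and 47.0, then Scarb2 at 23.01 and 29.2 CPM per kb. Msr1 had 15.2 CPM per kb in Control and 27.3 in caIKK2EC, and Scara5 had 19.2 and 13.7, so the means of the 2 class A genes stood in opposite order in the groups. Within the Controls Scarb2 (18.9 to 29.3 CPM per kb), Scara5 (17.4 to 20.6) and Msr1 (8.73 to 20.3) overlapped as neighbours. Within caIKK2EC the neighbours Scarb2 (21.0 to 34.5) and Msr1 (20.7 to 31.6) overlapped, as did Msr1 and Scara5 (8.996 to 21.2). Scarb1 lay at 7.34 and 7.33 CPM per kb, and Olr1 (1.92 and 2.87) overlapped with Stab2 (1.39 and 1.91) in both groups. Marco was at or under 0.250 CPM per kb in every library. The exon lengths are unions over all annotated transcripts, so a gene with many transcripts, such as Scarb1 with 11, gets a lower level than its main transcript would give.

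**Figure D1:**
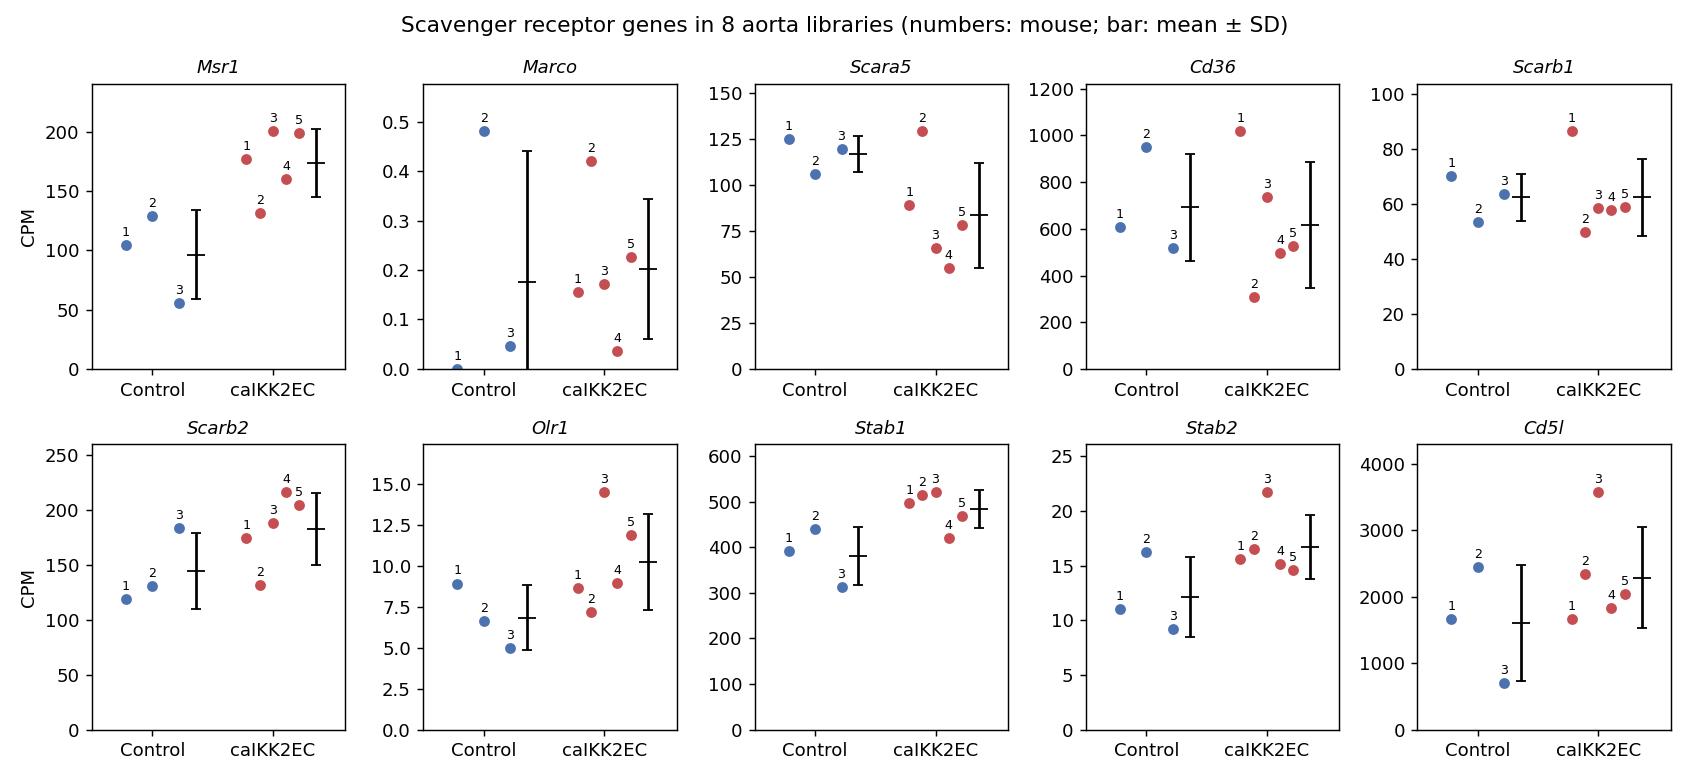
Level of each of the 10 genes in CPM (y axis, linear from 0, its own scale for each gene) in the 3 Control and 5 caIKK2EC libraries, with the mouse number above each point and a bar for the mean ± SD. Msr1 is the gene whose groups do not overlap, Scara5 is lower in 4 of 5 caIKK2EC libraries, and Control 3 is the lowest library for Msr1, Olr1, Stab1, Stab2 and Cd5l.

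Across the set, no gene passed edgeR's quasi-likelihood test in either direction with p-values adjusted over all genes, and neither did any other gene: the share called was 0% higher and 0% lower. At an unadjusted p under 0.05, 2 of the 9 tested genes were higher in caIKK2EC, Msr1 and Stab1, and none was lower, where 9.66% of all tested genes were higher and 7.47% lower. DESeq2, run on the same counts, called 1 of 9 higher (Msr1) and 0 lower, where it called 4.55% of 14340 genes higher and 1.51% lower. The groups did not overlap for 1 of the 9, Msr1, with every caIKK2EC library above every Control. Among all tested genes 7.01% lay above in this way and 3.22% below, a share for which 0 of the 9 counted. The median log2 fold change of the 9 genes was 0.34, beside -0.02 for all tested genes, and it was 0.19 without Control 3. Without Control 3, DESeq2 called 0 of the 9 in either direction, where it called 2.49% of 14280 genes higher and 0.231% lower.

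**Figure D2:**
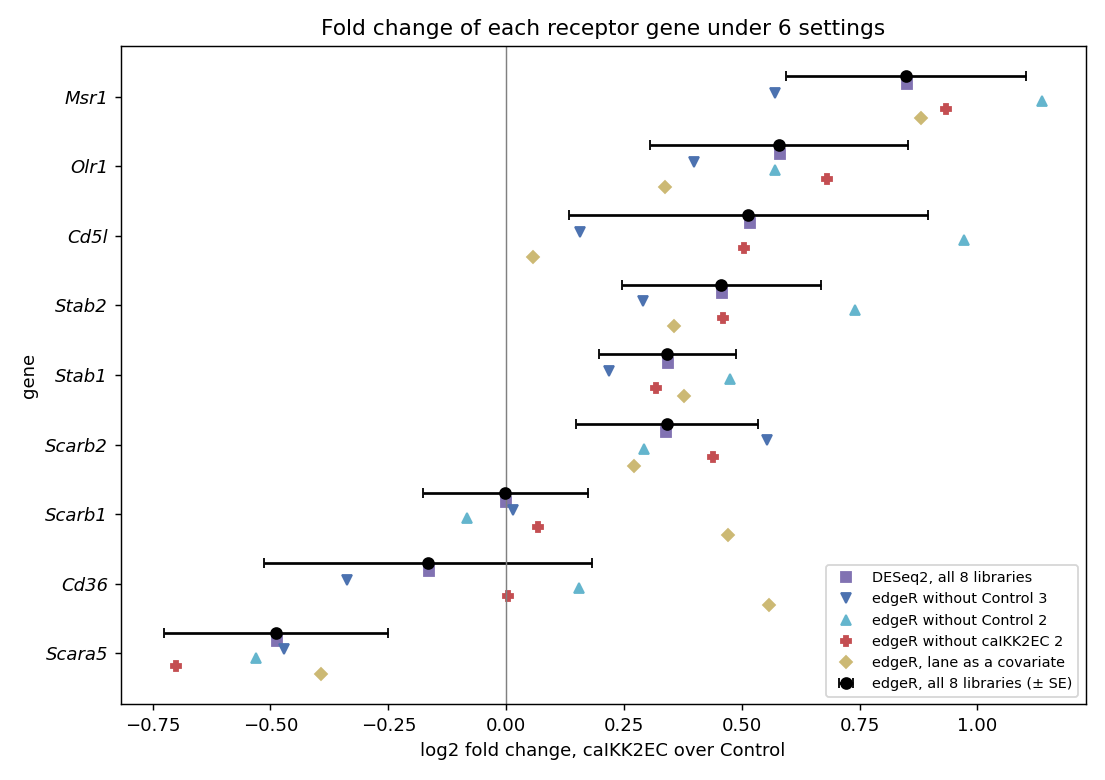
Log2 fold change of caIKK2EC over Control for the 9 tested genes (x axis), with edgeR on all 8 libraries as black points with ± SE and 5 other settings as coloured symbols. Msr1, Olr1, Cd5l, Stab1, Stab2 and Scarb2 lie right of 0 and Scara5 lies left of 0 in all 6 settings drawn, while Scarb1 and Cd36 lie on both sides of 0.

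Msr1 (chr8:39581685-39642673, minus strand, GRCm38) encodes macrophage scavenger receptor 1, which takes up acetylated and oxidized low-density lipoprotein. Its levels were 104, 129 and 55.4 CPM in Controls 1 to 3 and 177, 131, 200, 160 and 198 CPM in caIKK2EC 1 to 5. Every caIKK2EC library was thus above every Control, by a narrow margin between caIKK2EC 2 and Control 2. The means were 96.3 ± 37.5 CPM (SD, n = 3) and 173 ± 28.9 CPM (SD, n = 5), which is 1.80-fold. The log2 fold change was 0.85 (SE 0.25, 95% interval 0.28 to 1.42, unadjusted p = 0.00768), and edgeR's adjusted p was 0.159. DESeq2 gave 0.85 with an adjusted p of 0.0258, and the authors' deposited table holds these same values, 0.85 and 0.0258. An exact two-sided permutation test of log2(CPM + 0.5) gave p = 0.0357, the smallest that 3 libraries against 5 can give.

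Msr1 moved with Control 3 and with the macrophage markers. Without Control 3 the log2 fold change was 0.57 (edgeR adjusted p = 0.322, DESeq2 adjusted p = 0.0803), and without Control 2 it was 1.14 (edgeR adjusted p = 0.143). Leaving out caIKK2EC 3, 4 or 5 ended the DESeq2 call as well, with adjusted p-values of 0.0964, 0.0648 and 0.103. Within lane 7, caIKK2EC 1 lay 0.97 above the Control mean on the log2 scale, and with lane as a covariate the fold change was 0.88 (edgeR adjusted p = 0.407). Per 100 CPM of the 11 macrophage markers, Msr1 had 1.48, 1.76 and 2.41 CPM in the Controls and 1.47 to 1.82 in caIKK2EC. Without Lyz2, the marker with the most counts, the values were 3.46, 4.39 and 3.15 against 3.10 to 4.12. Relative to these markers the groups overlapped.

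Marco (chr1:120474538-120505024, minus strand), a macrophage receptor for bacteria and particles best known from spleen and lung, was barely present. It had 0, 13 and 1 counts in the Controls and 4, 10, 4, 1 and 7 counts in caIKK2EC, which is at most 0.481 CPM in Control 2. These counts are too few to set a level for either group, and Marco was not tested with edgeR.

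Scara5 (chr14:65666403-65764826, plus strand) encodes a class A receptor that is also a receptor for ferritin and is expressed by fibroblast-like cells. It had 125, 106 and 120 CPM in the Controls and 89.1, 129, 65.7, 54.8 and 78.5 CPM in caIKK2EC. In 4 of 5 caIKK2EC libraries it was below every Control, whereas caIKK2EC 2 was above them all. The means were 117 ± 9.81 (SD, n = 3) and 83.5 ± 28.7 CPM (SD, n = 5), a log2 fold change of -0.49 (SE 0.24, 95% interval -1.02 to 0.04, edgeR adjusted p = 0.330, exact permutation p = 0.143). This value was made smaller in size by caIKK2EC 2, which lay opposite to the rest of its group. Without caIKK2EC 2 the log2 fold change was -0.70, with an edgeR adjusted p of 0.0617 and a DESeq2 adjusted p of 0.00503. In that fit DESeq2 called 728 genes lower. The 6 fibroblast markers summed to 5979 to 8201 CPM in the Controls and 8105 to 10094 CPM in caIKK2EC, and the part of these cells in the level of Scara5 was not tested.

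Among the class B genes, Cd36 (chr5:17781690-17888801, minus strand) encodes a receptor for oxidized lipoprotein and long-chain fatty acids that is expressed in macrophages, fat cells, muscle and capillary endothelium. It had 608, 951 and 516 CPM in the Controls and 1018, 308.6, 736, 496 and 525 CPM in caIKK2EC. The caIKK2EC group held both the highest and the lowest library, and its range enclosed that of the Controls. The means were 692 ± 229 (SD, n = 3) and 617 ± 271 CPM (SD, n = 5), a log2 fold change of -0.17 (SE 0.35, 95% interval -0.94 to 0.61, edgeR adjusted p = 0.855). The sign was not stable: it turned to 0.15 without Control 2, to 0.004 without caIKK2EC 2 and to 0.56 with lane as a covariate (edgeR adjusted p = 0.654).

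Scarb1 (chr5:125277087-125341094, minus strand) encodes the receptor for selective uptake of cholesterol esters from high-density lipoprotein, which also carries low-density lipoprotein across endothelium. It had 70.1, 53.3 and 63.7 CPM in the Controls and 86.4, 49.9, 58.6, 57.7 and 58.9 CPM in caIKK2EC. Apart from caIKK2EC 1 the libraries lay close together, and the means of 62.4 ± 8.48 (SD, n = 3) and 62.3 ± 14.0 CPM (SD, n = 5) gave a log2 fold change of -0.0017 (SE 0.18, 95% interval -0.39 to 0.39, edgeR adjusted p = 0.998). With lane as a covariate it was 0.47 (edgeR unadjusted p = 0.0313, adjusted p = 0.370).

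Cd36 and Scarb1 were both highest in caIKK2EC 1 and lowest in caIKK2EC 2. The same libraries were the extremes of the fat markers: 5 white fat markers summed to 915 CPM in caIKK2EC 1 and 161 in caIKK2EC 2, and 4 brown fat markers to 2022 and 69.2 CPM, where the 6 other libraries had 219 to 628 and 399 to 1192 CPM. Among the Controls the 2 genes differed: Control 2 had the highest white fat sum (628 CPM) and the highest Cd36, but the lowest Scarb1 (53.3 CPM). Fabp4, a fatty acid carrier of fat cells, macrophages and capillary endothelium, had 1249 ± 332 CPM in Control (SD, n = 3) and 1235 ± 911 CPM in caIKK2EC (SD, n = 5). Whether perivascular fat had a part in the levels of Cd36 and Scarb1 was not tested.

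Scarb2 (chr5:92441314-92506833, minus strand), whose promoter holds the κB match printed above, encodes LIMP-2, a lysosomal membrane protein of the same family as CD36. It had 119, 131 and 184 CPM in the Controls and 175, 132, 189, 217 and 204 CPM in caIKK2EC. Control 3 was the highest Control and caIKK2EC 2 the lowest of its group, so the groups overlapped. The means of 145 ± 34.7 (SD, n = 3) and 183 ± 32.9 CPM (SD, n = 5) gave a log2 fold change of 0.34 (SE 0.19, 95% interval -0.09 to 0.77, edgeR adjusted p = 0.399, exact permutation p = 0.143). The log2 fold change was larger without Control 3, at 0.55 (edgeR adjusted p = 0.331).

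Olr1 (chr6:129485244-129507165, minus strand) encodes LOX-1, a receptor for oxidized low-density lipoprotein on endothelium, macrophages and smooth muscle that is known to be inducible by inflammatory cytokines. It was low, at 8.93, 6.62 and 5.0004 CPM in the Controls and 8.66, 7.20, 14.5, 8.93 and 11.9 CPM in caIKK2EC. Only caIKK2EC 3 and 5 were clearly above Control 1, the highest Control. The means were 6.85 ± 1.97 (SD, n = 3) and 10.2 ± 2.94 CPM (SD, n = 5), and the log2 fold change of 0.58 (SE 0.27, 95% interval -0.03 to 1.19) had an edgeR adjusted p of 0.316 and a DESeq2 adjusted p of 0.234. The exact permutation p was 0.107, and the log2 fold change was 0.40 without Control 3. The 8 endothelial markers, among whose cells the Cre is active, summed to 1509 to 2970 CPM in the Controls and 2481 to 3149 CPM in caIKK2EC.

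Stab1 (chr14:31139013-31168641, minus strand), one of the stabilin pair whose promoters are printed above, encodes a receptor that clears acetylated lipoprotein and matrix fragments. It had 392, 439 and 313.7 CPM in the Controls and 496, 514, 522, 420 and 468 CPM in caIKK2EC. All caIKK2EC libraries except number 4 were above every Control. The means of 382 ± 63.5 (SD, n = 3) and 484 ± 41.4 CPM (SD, n = 5) gave a log2 fold change of 0.34 (SE 0.14, 95% interval 0.02 to 0.67, unadjusted p = 0.0400) with an edgeR adjusted p of 0.271 and a DESeq2 adjusted p of 0.144. The exact permutation p was 0.0714, and the log2 fold change was 0.22 without Control 3. Per 100 CPM of the 10 macrophage markers without Lyz2, Stab1 had 13.02, 14.9 and 17.8 CPM in the Controls and 9.70 to 12.2 in caIKK2EC. Its mean CPM was thus higher in caIKK2EC while its ratio to these markers was lower in each caIKK2EC library than in any Control, and the ratio was not tested. With Lyz2 included the Stab1 ratios overlapped, at 5.55 to 13.6 against 4.15 to 5.78. Scara5 also lay below every Control per 100 CPM of the 10 markers, at 3.61 to 6.80 in the Controls against 1.27 to 3.06. With Lyz2 included the Scara5 ratios overlapped slightly, at 1.447 to 5.20 against 0.522 to 1.454. The 11 macrophage markers had a median log2 fold change of 0.88, so a gene that rose less has a lower ratio. The share of all genes with such a ratio was not computed.

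Stab2 (chr10:86841198-87008025, minus strand) encodes the main receptor that clears hyaluronan in liver and spleen sinusoids. It had 11.04, 16.2 and 9.18 CPM in the Controls and 15.6, 16.5, 21.7, 15.1 and 14.6 CPM in caIKK2EC. Control 2 lay within the caIKK2EC range and the other Controls lay below it. The means were 12.1 ± 3.66 (SD, n = 3) and 16.7 ± 2.90 CPM (SD, n = 5), a log2 fold change of 0.46 (SE 0.21, 95% interval -0.01 to 0.93, edgeR adjusted p = 0.306, exact permutation p = 0.143). It was 0.29 without Control 3 and 0.74 without Control 2, where DESeq2 gave an adjusted p of 0.0328 and edgeR one of 0.162.

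Cd5l (chr3:87357881-87371073, plus strand) is expressed by tissue macrophages under the control of liver X receptors and is known to protect macrophages loaded with oxidized lipoprotein from apoptosis. It had 1660, 2446 and 703 CPM in the Controls and 1667, 2342, 3579, 1825 and 2036 CPM in caIKK2EC. Only caIKK2EC 3 was above Control 2, and Control 3 stood below all other libraries. The means of 1603 ± 873 (SD, n = 3) and 2290 ± 764 CPM (SD, n = 5) gave a log2 fold change of 0.51 (SE 0.38, 95% interval -0.34 to 1.36, edgeR adjusted p = 0.528, exact permutation p = 0.321). This value rested on single Controls, at 0.16 without Control 3 and 0.97 without Control 2, and it was 0.06 with lane as a covariate. Cd5l made up 35.7% of the counts of the 10 genes in Control 3 and 66.4% in caIKK2EC 3, the libraries in which the set as a whole took its lowest and highest share of all counts, 0.182% and 0.518%.

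Read across libraries, the genes fell into different patterns. Control 3 was the lowest library for 5 of the 9 tested genes (Msr1, Olr1, Stab1, Stab2 and Cd5l), and caIKK2EC 3 the highest for the same 5. Both the summed macrophage markers, at 2300 CPM in Control 3 and 12580 in caIKK2EC 3, and the summed endothelial markers, at 1509 and 3149 CPM, had the same extremes. The most similar pair was Stab1 and Stab2, whose log2 levels, each centred on its own mean, differed by 0.154 on average over the 8 libraries. The next was Msr1 and Stab2 at 0.267, and the least similar pair was Msr1 and Scara5 at 0.819. This measure is small for genes that vary little: Stab1 deviated from its own mean by 0.182 on average and Stab2 by 0.265. A flat profile would thus lie 0.182 from Stab1, little farther than Stab2 does.

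**Figure D3:**
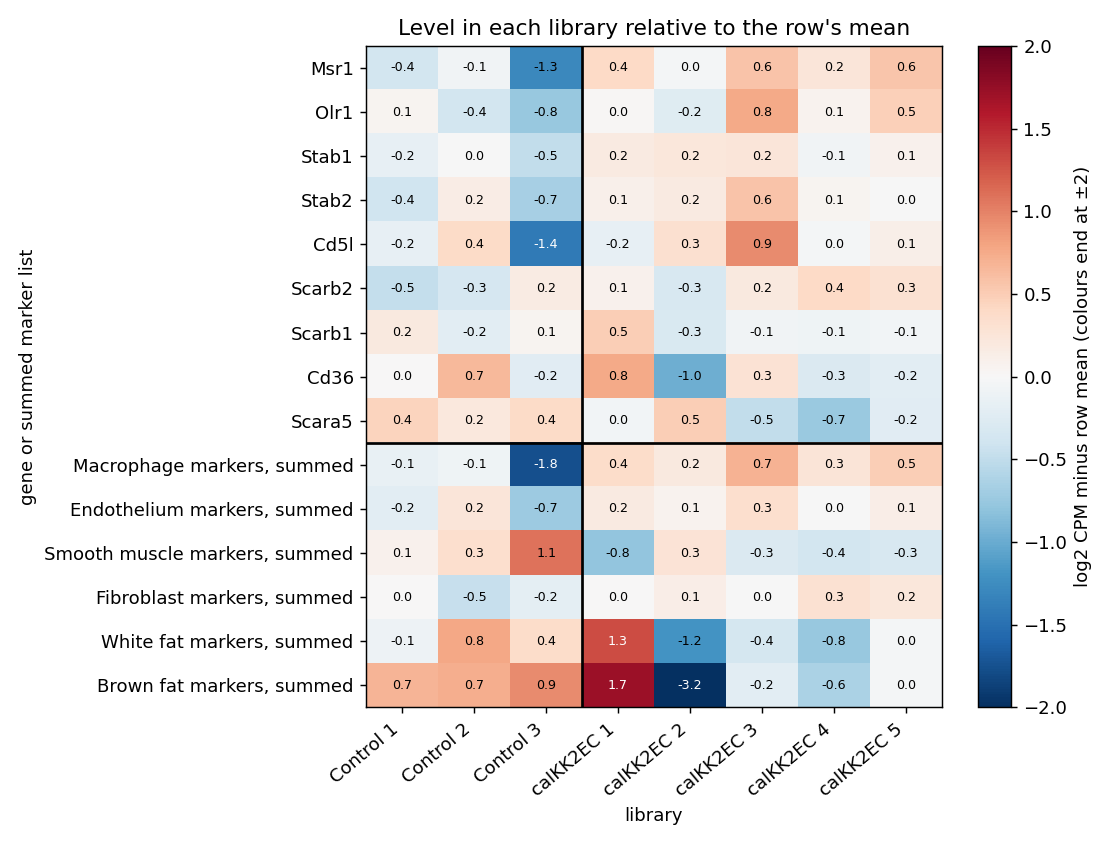
Heat map of log2 CPM minus the row's mean over 8 libraries (columns, Controls left of the vertical line) for the 9 tested genes and, below the horizontal line, 6 summed marker lists. Colours end at ±2, and numbers give the value. Msr1, Olr1, Stab1, Stab2 and Cd5l share their lowest library, Control 3, and their highest, caIKK2EC 3, with the macrophage and the endothelial markers, and Cd36 and Scarb1 share their highest and lowest libraries, caIKK2EC 1 and 2, with both fat lists.

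By the same measure, the nearest profiles among 12101 other genes were searched for each of the 9, as a description without a test. Msr1 was closest to Ly9 (0.0535), a lymphocyte and macrophage surface receptor, and Pla2g7 (0.0690), the lipoprotein-associated phospholipase A2. Pla2g7 had 147 CPM in Control and 263 in caIKK2EC on average. Stab2 was closest to Slc15a3 (0.0816) and Cnrip1 (0.0988), and Stab1 to Ddx18 (0.0591) and Slc3a2 (0.0598). Olr1 was closest to Fam180a (0.0863) and Has1 (0.105), a hyaluronan synthase. Scarb2 was closest to Man2a1 (0.0505), a Golgi mannosidase, and Cacul1 (0.0561), Scarb1 to the mitochondrial ribosomal protein genes Mrpl34 (0.0474) and Mrpl15 (0.0522), and Scara5 to Vnn1 (0.0901) and Dnajc4 (0.125). The nearest profiles to Cd36, Asns (0.150) and Sephs2 (0.153), and to Cd5l, Il18bp (0.146) and Ccdc148 (0.147), lay farther away than those of the other 7 genes.

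Other genes of lipoprotein handling were counted by list. The list of lysosomal release, storage and efflux of cholesterol held 9 tested genes, of which edgeR called 0 after adjustment and 8 were higher and 0 lower at an unadjusted p under 0.05, beside 9.66% and 7.47% of all tested genes. DESeq2 called 7 higher (Lipa, Npc2, Soat1, Nceh1, Abca1, Abcg1 and Ch25h) and 0 lower, beside 4.55% and 1.51% of all genes. The median log2 fold change was 0.61, beside 0.34 for the 9 receptor genes and -0.02 for all tested genes. Npc2, which hands cholesterol out of the lysosome, had 552 ± 114 CPM in Control (SD, n = 3) and 810 ± 85.5 CPM in caIKK2EC (SD, n = 5), a log2 fold change of 0.55 (SE 0.17). Abca1, the exporter of cholesterol to apolipoprotein A-I, had 448 ± 15.5 and 702 ± 144 CPM, a log2 fold change of 0.65 (SE 0.18). Without Control 3, DESeq2 called 1 of the 9, Abcg1, the exporter to high-density lipoprotein, beside 2.49% of all genes higher, while the median was 0.55.

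Of 15 other scavenger and lipoprotein receptors, edgeR called 0 after adjustment, and 3 were higher and 0 lower at an unadjusted p under 0.05 (9.66% and 7.47% of all genes). DESeq2 called 3 higher (Cd68, Cxcl16 and Mrc1) and 0 lower (4.55% and 1.51% of all genes). Without Control 3 it called Cd68 and Cxcl16 (2.49% of all genes higher). Cd68, a lysosomal glycoprotein that is itself a macrophage marker of the list above, had 395 ± 85.7 CPM in Control (SD, n = 3) and 694 ± 33.1 CPM in caIKK2EC (SD, n = 5), a log2 fold change of 0.81 (SE 0.16). Lrp1, a large endocytic receptor of the low-density lipoprotein receptor family, had 1881 ± 563 and 2000 ± 180 CPM, a log2 fold change of 0.09 (SE 0.19). The median of the list was 0.08, and 0.16 without Control 3.

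Among 7 tested partners and adaptors of the receptors, edgeR called 0 after adjustment, and 5 were higher and 0 lower at an unadjusted p under 0.05, where all genes gave 9.66% and 7.47%. DESeq2 called 3 higher (Tlr2, Tlr6 and Lyn) and 0 lower, where all genes gave 4.55% and 1.51%. Without Control 3 it called Tlr2 and Lyn, where all genes gave 2.49% higher. The median log2 fold change was 0.45, and 0.51 without Control 3. Cav1, which encodes the main protein of caveolae, had 1015 ± 193 CPM in Control (SD, n = 3) and 809 ± 60.2 CPM in caIKK2EC (SD, n = 5), a log2 fold change of -0.33 (SE 0.15). Mertk, which is also on the macrophage list, had 109 ± 15.97 and 148 ± 36.5 CPM, a log2 fold change of 0.45 (SE 0.20).

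Of 7 fatty acid carriers and uptake genes, edgeR called 0 after adjustment. At an unadjusted p under 0.05 in edgeR, 1 was higher and 0 lower (9.66% and 7.47% of all genes). DESeq2 called 1, Fabp5, higher with Control 3 (4.55% of all genes) and without it (2.49%), and the median was -0.02. Lpl had 1455 ± 293 CPM in Control (SD, n = 3) and 1966 ± 587 CPM in caIKK2EC (SD, n = 5), or 0.43 on the log2 scale (SE 0.25), and was called by neither tool. Of 8 transcription factors known to act on the receptors, edgeR called 0 after adjustment. At an unadjusted p under 0.05 in edgeR, 2 were higher and 0 lower, beside 9.66% and 7.47% of all genes. DESeq2 called 2 higher, Spi1 (which encodes PU.1) and Nfe2l2, and 0 lower, beside 4.55% and 1.51% of all genes. Without Control 3 it called Spi1, beside 2.49% of all genes higher, and the median of the list was 0.12 with Control 3 and -0.0013 without it. Nfe2l2, which encodes the antioxidant response factor NRF2, had 157 ± 38.1 CPM in Control (SD, n = 3) and 224 ± 14.8 CPM in caIKK2EC (SD, n = 5), a log2 fold change of 0.51 (SE 0.16). Klf2, a flow-induced endothelial factor, had 210 ± 69.9 and 226 ± 50.8 CPM, and Pparg, known as a regulator of Cd36, had a log2 fold change of -0.01 (SE 0.33).

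**Figure D4:**
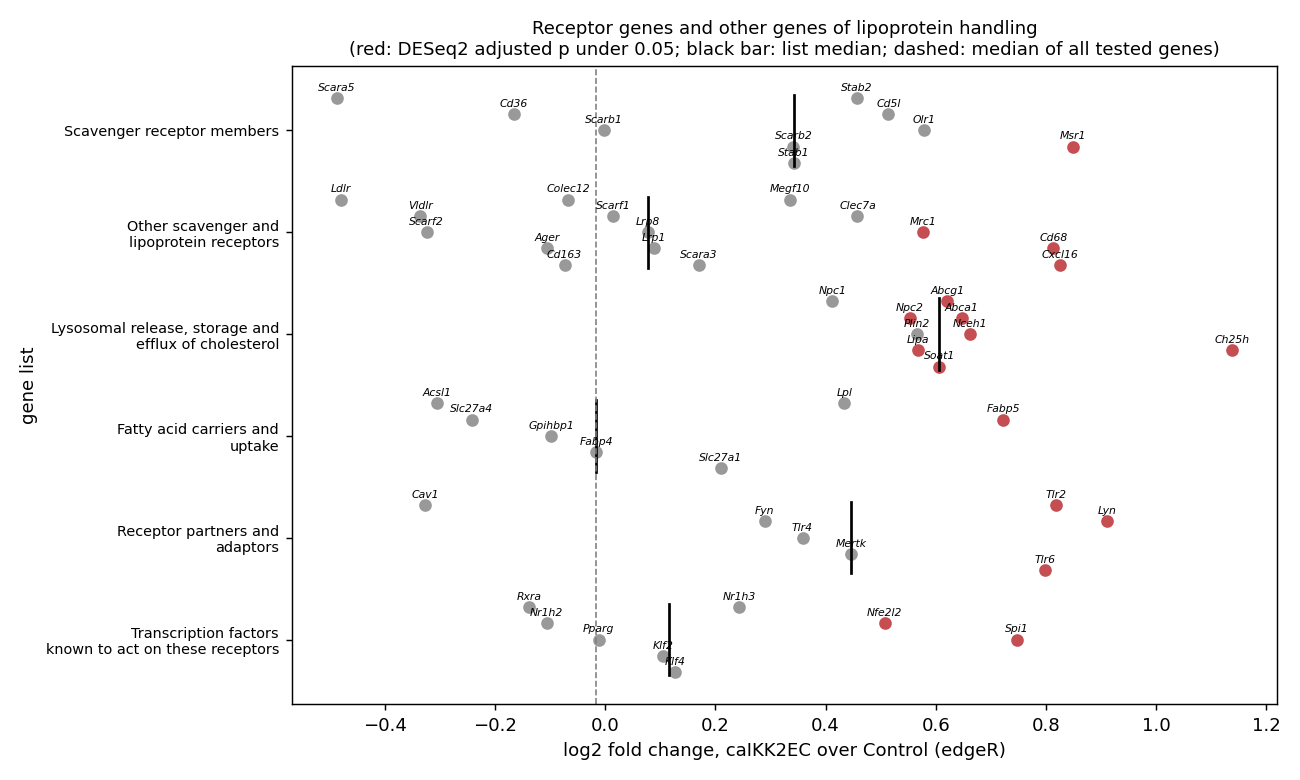
Log2 fold change of caIKK2EC over Control in edgeR (x axis) for the receptor genes and 5 lists of other genes of lipoprotein handling (rows), 1 point per gene, placed at several heights within a row for legibility. Red points have a DESeq2 adjusted p under 0.05, the black bar is the median of the list and the dashed line the median of all tested genes, -0.02. In the cholesterol release, storage and efflux list 7 of 9 genes are red, and among the receptors only Msr1 is.

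Of the 11 macrophage markers edgeR called 0 after adjustment, and DESeq2 called 9 higher with Control 3 (4.55% of all genes) and 9 without it (2.49%). Lyz2 and Mertk were called by neither tool, at DESeq2 adjusted p-values of 0.241 and 0.232 with all 8 libraries. The median log2 fold change of the 11 was 0.88, and 0.66 without Control 3. Of 6 resident-type macrophage markers DESeq2 called 1, Mrc1, and 0 without Control 3. The 6 smooth muscle markers were all lower at an unadjusted p under 0.05 (7.47% of all genes), and DESeq2 called 1 lower (1.51%), and 0 without Control 3 (0.231%). Heart and skeletal muscle markers summed to 1640 CPM in Control 1, to 831 CPM in caIKK2EC 1 and to at most 73.8 CPM in the other libraries. B and T cell markers summed to at most 10.6 and 19.0 CPM, and the lymphatic markers to 69.1 to 141 CPM. The part of cell type content in the receptor levels was not tested.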

How the data were processed

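Poly(A) RNA of 8 whole aortas was sequenced as single 50-base reads from a directional kit, per the labels' protocols. The count table was deposited by the authors as raw counts per gene symbol. Named in the submitters' processing notes are build GRCm38 (mm10), STAR 2.7.0e, FastQC 0.11.5 and DESeq2 1.22.2. The sources used here do not give the counting program, annotation or strand setting, so overlapping and antisense genes may share reads. The authors' deposited comparison table gives log2 fold changes and p-values. The authors' deposited regularized log2 table entered no step.

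Of 24411 rows, 5938 had a total of 0, and 27 had date-like names, none of them a receptor gene. The fit used edgeR 4.0.16 (limma 3.58.1, R 4.3.3) with TMM scaling, filterByExpr by group, which left 14679 genes, a robust quasi-likelihood F test and Benjamini-Hochberg adjustment over all genes kept, with a threshold of 0.05. The SE is the log2 fold change divided by the root of F. A prior count of 2 was added for log2 CPM. DESeq2 1.42.0 was an alternative, in which the adjusted p of genes below its own filter stays undefined. Exact tests used all 56 label sets with 0.5 added to CPM. Exon lengths and coordinates are from GENCODE M21 on GRCm38. All pairs of libraries differed by more than sampling noise, with a lowest chi-square per degree of freedom of 17.6. The fits were tested on simulated data.

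All 10 receptor genes are named. From each list the rule names the 2 genes with the highest mean CPM and any that edgeR called. As it called none, the DESeq2 calls are named, a choice made after values were seen, as was Pparg. For each receptor gene it names the 2 nearest profiles among genes whose mean log2 CPM is 1 or more. The genes and lists were chosen with earlier results of these data known. Alternatives were DESeq2, other size factors, other filters, leaving out each library, and sex, age, lane or replicate number in the fit. DESeq2 without each library was added after seeing the data. A few genes of the lists are not reported here and were left out of the list counts.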

Additional observations from a re-analysis of the deposited data

Results flagged for a closer look

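Scarb1 in caIKK2EC 1 lay apart from its group. It had 86.4 CPM, where the next library had 58.9 CPM, and this gap was 0.752 of the group's range, against Dixon's critical value of 0.71 for 5 samples. The same library was the highest for Cd36 and for the white and brown fat markers.

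Stab2 in caIKK2EC 3 lay apart in the same way, at 21.7 CPM, with a gap of 0.733 of the range of the group. Chance flags about 1 in 20 groups, and 10 genes were examined in the caIKK2EC group.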

How the results depend on the processing

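The 6 receptor genes with a log2 fold change above 0 and Scara5 below 0 kept their sign under every alternative run, and edgeR called no receptor gene except in the fit with age as a covariate. There Msr1 passed (1.04, edgeR adjusted p = 0.0354), so the number called higher was 1, in a fit that called 407 genes higher and 254 lower. The number called higher was also 1 under DESeq2 on all 8 libraries, beside 4.55% of all genes. Leaving out each library in turn, with edgeR or DESeq2, gave 0 to 2 called higher and 0 to 1 called lower. The 2 called higher came from DESeq2 without Control 2, which called 589 of 16473 genes with a p-value higher. The 1 called lower came from DESeq2 without caIKK2EC 2, which called 728 of 16492 such genes lower. The cause of these changes in the number called was not tested. Scarb1, at -0.0017, turned to 0.0085 without a filter, 0.0138 with sex, 0.0441 with age, 0.470 with lane and 0.0511 with the replicate block, and ranged from -0.15 to 0.11 without single libraries. Cd36 turned to 0.56 with lane and ranged from -0.42 to 0.15 without single libraries. The fit with lane as a covariate sets caIKK2EC 1 alone against the Controls. As Control 3 was the only male, the fit with sex in effect leaves it out. Msr1 was at 0.571 both with sex as a covariate and without Control 3. Sex and Control 3 thus cannot be told apart.

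Replicate numbers as a block (6 libraries) called 0 genes in all. Msr1 was at 0.90 (edgeR adjusted p = 0.520). The same-numbered libraries deviated together with correlations of 0.335, 0.0989 and 0.0968. Controls 1 and 2, and caIKK2EC 1 to 3, each correlated best with the same number in the other group. Control 3 instead correlated best with caIKK2EC 4 (0.180). The labels name no pairs, and the numbers were not taken as pairs. Control 1 and caIKK2EC 1, the pair at 0.335, also share lane, sex and age. Control 2 shares all of these with caIKK2EC 1 too, and that pair was at -0.0187. Leaving out caIKK2EC 2 raised edgeR's calls over all genes from 0 to 230 higher and 129 lower. Marco, at 0 to 13 counts, had too few counts to set a level.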
